A study of Mus musculus with 8 samples.

Results

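The 39 genes described here encode proteins that sense DNA damage, halt the cell cycle or repair DNA. They were listed by name as known repair genes, with earlier results of these data in view, and all 39 were found among the 24062 genes of the count tables. All 39 also passed the filter on low counts, which kept 15789 genes for testing. RNA was sequenced from the whole cerebellum of single mouse pups at postnatal day 2, with 4 mutant pups of genotype Math1-Cre; Sufu flox/- and 4 control littermates that the series text gives as Sufu flox/+. The strain is given as C57BL/6(mixed). The mating recorded in the labels was of Math1-Cre; Sufu +/- animals with Sufu flox/flox; Math1 mgfp/mgfp animals, so by descent every pup of both groups carried 1 floxed Sufu allele and 1 Math1 mgfp allele. Math1-Cre acts in the lineage that gives rise to cerebellar granule neurons, so recombined cells were only one portion of the tissue, while the null Sufu allele of the mutants was present in all of their cells. No label at hand says if Cre was present in the controls.

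Sufu is a negative regulator of Hedgehog signalling, the pathway that drives granule cell precursors to divide in the cerebellum after birth. Dividing cells copy their DNA, and copying leaves gaps and breaks that repair must close. The kinases Atm and Atr sense breaks and stalled replication forks and signal through Chek2 and Chek1. Broken ends are then either joined directly or, once the DNA has been copied, repaired from the sister chromatid by homologous recombination with Brca1 and Brca2. The Fanconi anaemia proteins clear crosslinks between the strands. In many cell types the transcripts of a good part of these genes are most abundant in S and G2 phase, and E2F factors are among the regulators known for that pattern.

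Libraries held 21479565 to 26638284 counts in genes. Levels are given in CPM, the usual unit of counts relative to library depth, here with depths adjusted by TMM, a method that lines up most genes between libraries. CPM does not correct for gene length, so levels are compared between libraries and not between genes. Sufu, the targeted gene, was at 47.7, 51.0, 55.9 and 60.7 CPM in controls 1 to 4 and at 31.7, 34.4, 36.8 and 39.8 CPM in mutants 1 to 4. The ranges did not overlap, and the log2 fold change was -0.59 (SE 0.11, adjusted p = 0.381 in edgeR and 0.00106 in DESeq2, both with Benjamini-Hochberg adjustment). Mutant 4 stood apart from the others in 9 Hox genes, which are active in the hindbrain behind the cerebellum and not in the cerebellum: their summed level was 99.7 to 157 CPM in the controls and 5.39 to 129 CPM in the mutants, lowest in mutant 4. Xist, a transcript of the inactive X chromosome, was at 1.76 CPM in mutant 2 and 0.82 CPM in mutant 4, against 1449 to 2197 CPM in the 6 other libraries. Low Xist, as in male tissue, was thus found in mutants only, so by this transcript sex was not balanced between the groups. Titles of controls 1 and 2 and mutants 1 and 2 hold the letter P, those of the other libraries R, and no label explains the letters. In a bulk tissue sample, fewer cells of a type and less RNA per cell cannot be told apart.

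Most of the repair genes had a somewhat higher level in the mutant cerebella, and no single one passed the test. Of the 39, 38 had a fitted log2 fold change above 0, against 52.3% of all tested genes, and the median over the 39 was 0.33, a fold of 1.25, against 0.01 over all genes. The exception was Trp53bp1, at -0.03. The size of the difference varied with the mutant: mutant 4 had the highest level of all 8 libraries for 36 of the 39 genes, against 25.0% of all tested genes. The number of repair genes above all 4 controls was 22, 19, 30 and 36 of 39 for mutants 1 to 4, where the shares of all genes were 24.0%, 22.3%, 27.4% and 35.0%.

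By edgeR's quasi-likelihood test with Benjamini-Hochberg adjustment over all 15789 genes, 0 of the 39 genes were called at an adjusted p under 0.05, where the share called over all genes was also 0%. Adjusted p ran from 0.381 to 0.934. The adjustment gave the same value of 0.381 to genes of unequal unadjusted p in edgeR, from 0.00405 for Brca2 to 0.0240 for Mdc1. Sufu, with an unadjusted p of 0.000217 in edgeR, had that same adjusted value. At an unadjusted p under 0.05, 23 of the 39 were higher in the mutants, where 6.94% of all genes were, and 0 were lower, where 5.70% were. For 10 of the 39 every mutant was above every control, against 3.60% of all genes, and for 0 was every mutant below every control, against 2.96%. DESeq2 called 0.298% of all genes and 0 of the 39, whose lowest adjusted p was 0.115, and put 24 of them higher at an unadjusted p under 0.05, against 7.03% of all genes. The genes were measured in the same 8 pups, so they are not independent of one another.

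**Figure D1:**
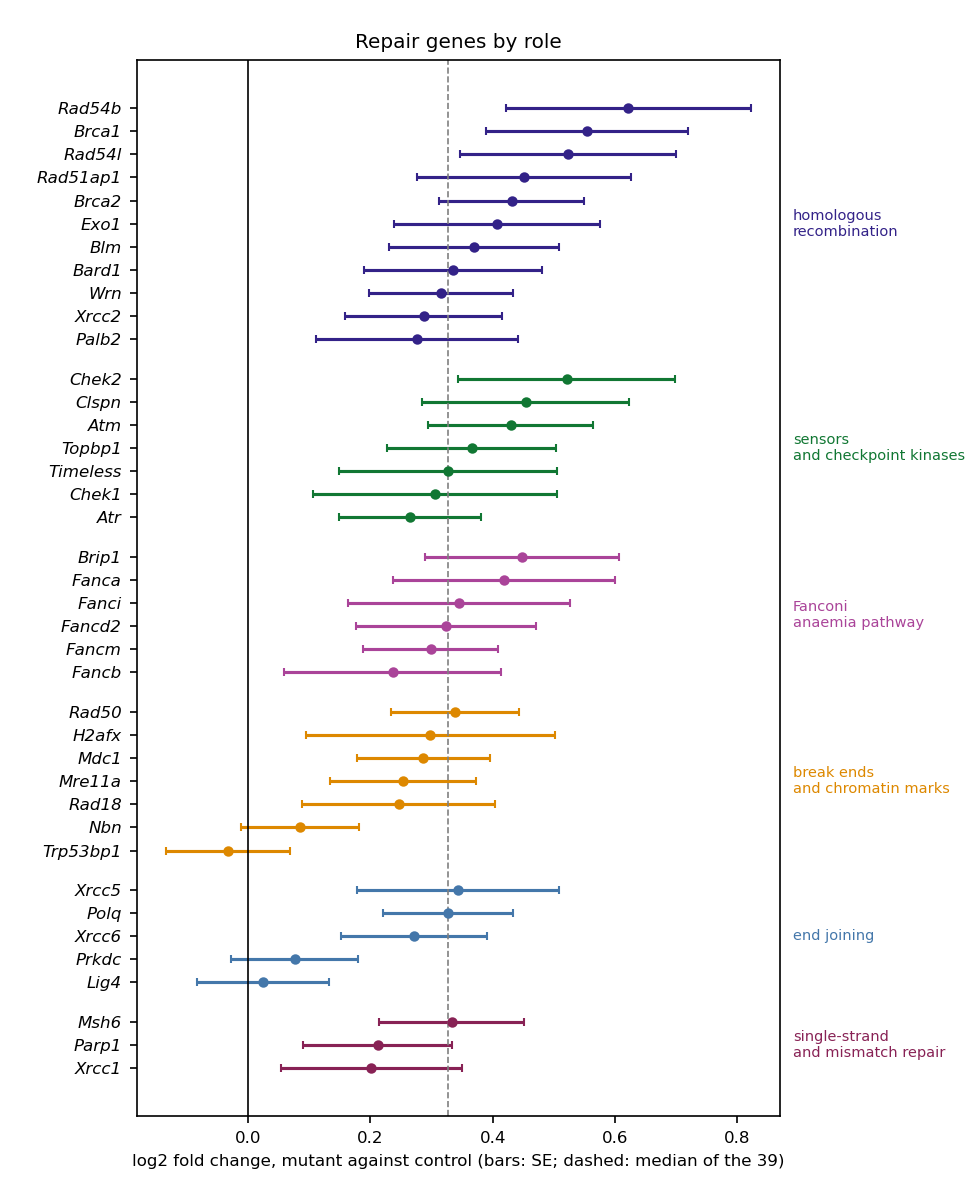
Fitted log2 fold change of each of the 39 repair genes, mutant against control (x axis, 4 libraries a group), grouped by role, with bars for 1 SE and a dashed line at the median of 0.33. The points of 38 genes lie above 0, those of homologous recombination reach from 0.28 to 0.62, and Trp53bp1 lies at -0.03.

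The known pattern of these genes in the cell cycle makes their promoters worth printing, as 8 of them hold the letters of an E2F site. RefSeq promoter windows of build GRCm38.p6, 250 bases before to 50 bases after the start of a transcript, were at hand for 30 of the 39 genes. The forms TTTGGCGC and TTTCCCGC and also TTTCGCGC and TTTGCCGC were searched on both strands. At least 1 form was found for 8 of 30 genes (26.7%), namely Brca2, Bard1, Chek2, Clspn, Topbp1, Mdc1, Xrcc6 and Msh6, against 546 of 12412 tested genes with a window (4.40%). Other cell cycle motifs were searched in the same windows, on both strands. CCAAT was in 18 of 30 (60%) against 42.4% of the 12412 genes, and TTTGAA, the core of the element called CHR, was in 2 of 30 (6.67%, Bard1 and Polq) against 14.3%. Among 90 other repair genes with a window, 10% held an E2F form, 53.3% CCAAT and 12.2% TTTGAA. For 17 genes of G1/S and replication the shares were 47.1%, 70.6% and 17.6%. For 18 genes of G2 phase and mitosis they were 5.56%, 88.9% and 66.7%. A match is a run of letters and not a measured binding site. Below are the 60-base stretches of the 6 genes whose match lies before the start, 5′ to 3′ on the gene's strand, with the matched letters in capitals. They lie at chr5:150522428-150522487 for Brca2, chr1:71103147-71103206 on the minus strand for Bard1, chr5:110839806-110839865 for Chek2, chr9:103305173-103305232 for Topbp1, chr17:35841438-35841497 for Mdc1 and chr15:82016298-82016357 for Xrcc6. The match begins 168 bases before the start in Brca2, 209 in Bard1, 152 in Chek2, 129 in Topbp1, 16 in Mdc1 and 46 in Xrcc6.
Brca2: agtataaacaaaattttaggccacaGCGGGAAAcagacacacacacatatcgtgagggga
Bard1: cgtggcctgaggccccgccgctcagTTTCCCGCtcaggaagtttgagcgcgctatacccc
Chek2: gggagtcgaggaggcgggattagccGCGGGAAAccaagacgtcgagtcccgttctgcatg
Topbp1: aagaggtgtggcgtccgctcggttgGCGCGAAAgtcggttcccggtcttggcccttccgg
Mdc1: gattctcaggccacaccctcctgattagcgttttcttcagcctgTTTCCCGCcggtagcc
Xrcc6: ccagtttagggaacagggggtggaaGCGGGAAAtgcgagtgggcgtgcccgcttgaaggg
Brca2, Chek2 and Xrcc6 share the run GCGGGAAA, which is TTTCCCGC read on the other strand, and Bard1 and Mdc1 hold it in the forward sense.

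The sensors and checkpoint kinases were all higher in fitted level in the mutants, 7 of 7, against 52.3% of all tested genes. Their median log2 fold change was 0.37, and 5 were higher at an unadjusted p under 0.05, against 6.94% of all genes. Atm, the kinase that responds to double-strand breaks, was at 50.4, 60.6, 45.1 and 50.4 CPM in controls 1 to 4 and at 67.2, 63.8, 59.6 and 87.4 CPM in mutants 1 to 4. Mutant 3 was just below control 2 and the other 3 mutants were above every control. The log2 fold change of Atm was 0.43 (SE 0.14, edgeR adjusted p = 0.381). Chek2, the kinase that Atm activates and one of the genes whose promoter stretch is printed above, was at 7.24, 7.10, 7.08 and 6.995 CPM in the controls and at 7.61, 8.42, 11.8 and 13.0 CPM in the mutants. The controls lay very close together at 7.11 ± 0.102 CPM (SD, n = 4), and all mutants were above them, mutants 3 and 4 by far more than mutants 1 and 2. The counts behind these levels were 149 to 187 in the controls and 174 in mutant 1. Whether mutant 1 lay above the controls beyond counting noise was not tested. The log2 fold change of Chek2 was 0.52 (SE 0.18, edgeR adjusted p = 0.381).

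Atr, the kinase that senses stalled forks, differed less, at 0.26 on the log2 scale, than Clspn at 0.45 and Topbp1 at 0.37, both of which help Atr to activate Chek1. Topbp1 was one of the 10 genes without overlap, with a mean of 88.4 ± 6.10 CPM in the controls and 114 ± 24.9 CPM in the mutants (SD, n = 4 each). Timeless, which guards the moving fork, was at 0.33 and overlapped between groups. Chek1, the kinase below Atr, was at 18.8, 21.3, 12.5 and 15.4 CPM in the controls and at 16.8, 17.1, 22.9 and 27.3 CPM in the mutants. Mutants 1 and 2 were below both controls with the same title letter and mutants 3 and 4 were above both of theirs, so its log2 fold change of 0.31 (SE 0.20, edgeR adjusted p = 0.498) averages opposite differences.

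Among the genes that handle break ends and mark the chromatin around them, 6 of 7 were higher in fitted level, against 52.3% of all genes. The median log2 fold change was 0.25, and 2 were higher at an unadjusted p under 0.05, against 6.94% of all genes. Rad50, the arm of the complex that tethers broken ends, was at 25.8, 27.3, 27.5 and 27.7 CPM in the controls and at 33.1, 30.9, 32.4 and 40.6 CPM in the mutants. All mutants were above all controls, and mutant 4 was the highest. Its log2 fold change was 0.34 (SE 0.11, edgeR adjusted p = 0.381). Mre11a, the nuclease of the same complex, was at 0.25 and did not overlap between groups either. Its margin was very small, with mutant 3 at 17.90 CPM and control 2 at 17.88 CPM. Nbn, the third subunit, was at 0.08 (SE 0.10) with overlapping ranges. The subunits of 1 complex thus had unequal fitted differences, though a difference between genes was not tested.

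Mdc1, which binds the marked histone at breaks, was at 0.29 on the log2 scale and H2afx, that histone, at 0.30, with overlap in both. Rad18, a ubiquitin ligase that acts at blocked forks, was at 0.25. Trp53bp1 (53BP1), which shields broken ends from resection and favours end joining, was at 273, 256, 270 and 269 CPM in the controls and at 293, 281, 230 and 241 CPM in the mutants. Mutants 1 and 2 were above every control and mutants 3 and 4 below every control, and the log2 fold change of -0.03 (SE 0.10, edgeR adjusted p = 0.904) lay within its error of 0.

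Homologous recombination was the role with the most genes and the highest median, a log2 fold change of 0.41. In fitted level 11 of 11 genes were higher, against 52.3% of all genes, and 10 were so at an unadjusted p under 0.05, against 6.94%. Brca2, which loads the recombinase onto the DNA, was at 28.0, 31.1, 28.6 and 30.5 CPM in the controls and at 38.3, 39.1, 33.5 and 48.5 CPM in the mutants. All mutants were above all controls, with means of 39.8 ± 6.30 against 29.6 ± 1.51 CPM (SD, n = 4 each). The log2 fold change of Brca2 was 0.43 (SE 0.12, edgeR adjusted p = 0.381). Its unadjusted p of 0.00405 in edgeR was the smallest of the 39. Brca1, which steers breaks towards recombination, was at 30.1, 28.7, 26.6 and 30.2 CPM in the controls and at 34.6, 35.2, 40.4 and 59.5 CPM in the mutants. Again no mutant fell within the control range, and mutant 4 was well above the other 3. Brca1 had a log2 fold change of 0.55 (SE 0.16, edgeR adjusted p = 0.381).

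The related motor proteins Rad54b and Rad54l, which help the recombinase to pair DNA strands, both had differences above 0.5 on the log2 scale. Rad54b was at 6.54, 7.84, 5.58 and 9.11 CPM in the controls and at 9.58, 9.37, 10.6 and 15.2 CPM in the mutants. The groups did not overlap, but control 4 was close to mutants 1 and 2. The log2 fold change of 0.62 (SE 0.20, edgeR adjusted p = 0.381) was the largest of the 39 genes, and Rad54b shares exon bins with the overlapping gene Fsbp. Rad54l was at 10.3, 10.9, 10.7 and 13.0 CPM in the controls and at 12.4, 13.3, 17.2 and 21.4 CPM in the mutants. Only mutant 1 was below the highest control, and the log2 fold change was 0.52 (SE 0.18, edgeR adjusted p = 0.381).

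Of the 7 other recombination genes, Wrn, a helicase and nuclease, was the only one without overlap, at 0.32 on the log2 scale. Exo1, which resects ends, was at 0.41, the helicase Blm at 0.37, Bard1, the partner of Brca1, at 0.34, and Xrcc2, a relative of the recombinase, at 0.29. Palb2, which joins Brca1 to Brca2, was lowest of the 11 at 0.28 and the only one with an unadjusted p above 0.05. Rad51ap1, a partner of the recombinase, was at 19.0, 15.4, 14.4 and 14.04 CPM in the controls and at 17.3, 17.01, 24.1 and 27.5 CPM in the mutants. Mutants 1 and 2 lay inside the control range and mutants 3 and 4 above it, and the log2 fold change was 0.45 (SE 0.18, edgeR adjusted p = 0.386).

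All 6 genes of the Fanconi anaemia pathway were higher in fitted level, against 52.3% of all genes, with a median log2 fold change of 0.33. Of the 6, 3 were higher at an unadjusted p under 0.05, against 6.94% of all genes. Brip1, a helicase that binds Brca1, was at 8.40, 9.60, 9.78 and 11.8 CPM in the controls and at 13.0, 12.1, 11.7 and 17.1 CPM in the mutants. Control 4 was above mutant 3 by a little, and the other mutants were above every control. Brip1 had a log2 fold change of 0.45 (SE 0.16, edgeR adjusted p = 0.381). Fanca and Fancb, of the core complex that ubiquitinates, were at 0.42 and 0.24, and Fancm, which brings the core complex to DNA, was at 0.30. Fancd2 and Fanci, the pair that is ubiquitinated, were at 0.32 and 0.34, and of the 6 genes Fancd2 alone had no overlap.

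End joining had a median log2 fold change of 0.27 over 5 genes, from 0.02 to 0.34. Higher at an unadjusted p under 0.05 were 2 of the 5, against 6.94% of all genes. Polq, the polymerase of the end joining that uses short stretches of matching bases, was at 16.5, 16.9, 15.2 and 16.1 CPM in the controls and at 19.3, 19.7, 18.9 and 23.2 CPM in the mutants. The groups did not overlap, and mutants 1 to 3 were close to each other. Polq had a log2 fold change of 0.33 (SE 0.11, edgeR adjusted p = 0.381). Xrcc6 and Xrcc5, the Ku proteins that bind ends, were at 0.27 and 0.34. Xrcc5 was at 31.5, 28.9, 22.9 and 25.2 CPM in the controls and at 29.6, 26.9, 36.6 and 44.6 CPM in the mutants, so that mutants 3 and 4 were above every control and mutants 1 and 2 were not.

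The kinase and the ligase of classical end joining differed least. Prkdc, the kinase that Ku recruits, was at 36.8, 38.6, 31.0 and 31.5 CPM in the controls and at 38.1, 35.5, 33.5 and 38.3 CPM in the mutants. No mutant was above the highest control, and the log2 fold change was 0.08 (SE 0.10, edgeR adjusted p = 0.753). Lig4, the ligase that seals the ends, was at 20.7, 22.4, 19.0 and 20.2 CPM in the controls and at 23.8, 21.0, 19.9 and 19.1 CPM in the mutants. Its ranges covered nearly the same span, with a log2 fold change of 0.02 (SE 0.11, edgeR adjusted p = 0.934).

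The 3 genes of single-strand break and mismatch repair were all higher in fitted level, against 52.3% of all genes. Msh6, which recognises mismatched bases after replication, was at 57.2, 62.8, 57.8 and 66.6 CPM in the controls and at 73.0, 65.2, 74.7 and 94.9 CPM in the mutants. Mutant 2 was below control 4 and the other mutants were above every control, with a log2 fold change of 0.33 (SE 0.12, edgeR adjusted p = 0.381). Parp1, which binds nicked DNA, was at 0.21, and Xrcc1, the scaffold it recruits, at 0.20, both with overlap.

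**Figure D2:**
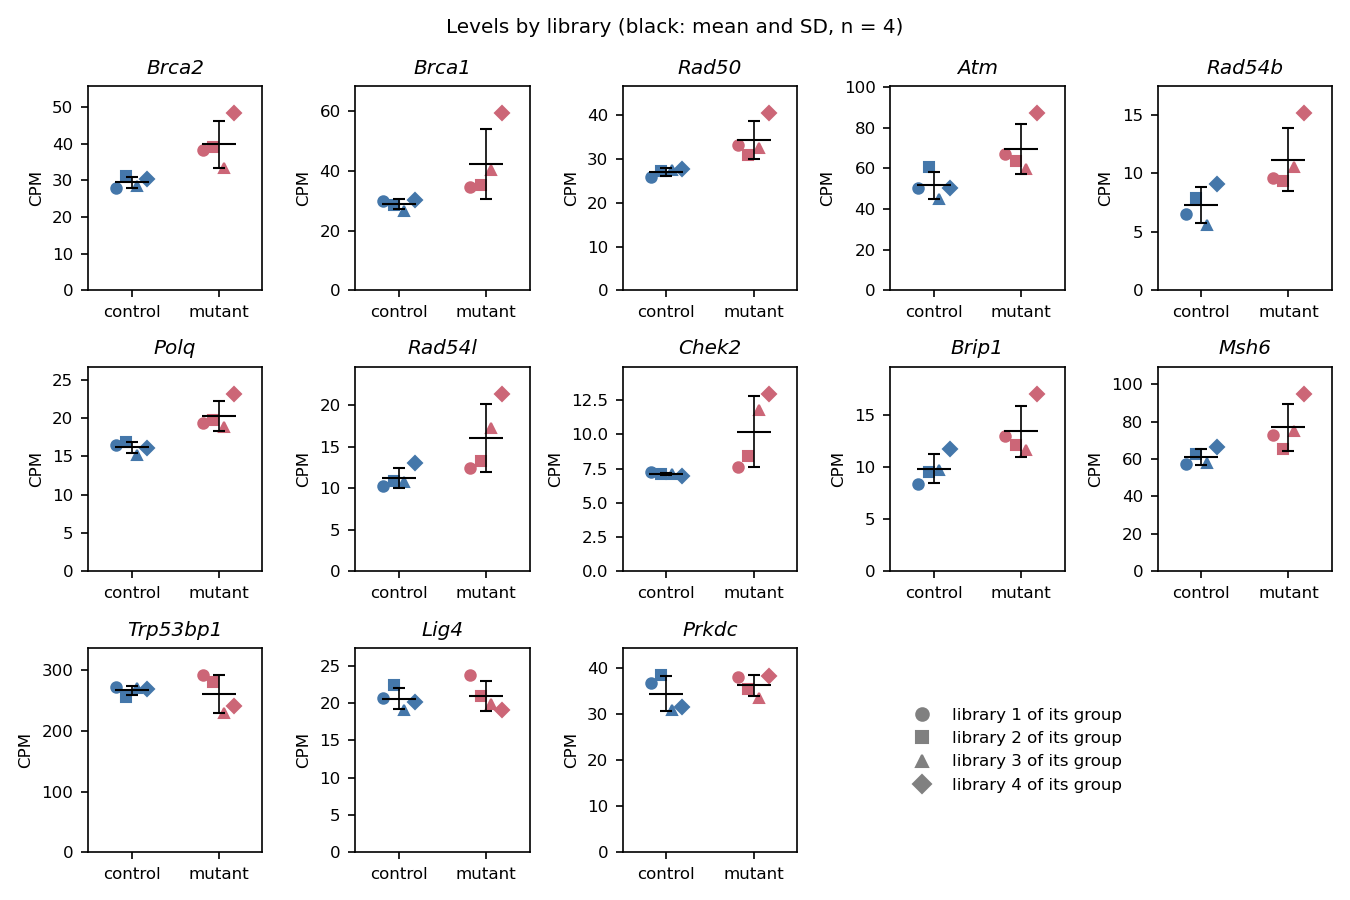
Level in CPM (y axis, from 0) of the 13 genes given by library, with 1 point for each of 4 control and 4 mutant libraries, marker shape for the library number within its group, and black lines for mean and SD. Mutant 4 is the highest point for the first 10 genes, while the ranges of Trp53bp1, Lig4 and Prkdc overlap.

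Other repair genes, listed from knowledge of the same pathways, had a smaller median difference. Among them 112 were tested, with Dntt and Msh4 too low for the filter. Of the 112, 92 (82.1%) were higher in fitted level, against 52.3% of all tested genes. Their median log2 fold change was 0.14, against 0.33 for the 39, a difference that was not tested, and 0.01 over all genes. In edgeR, 14 were higher at an unadjusted p under 0.05, against 6.94% of all genes, and 0 were lower, against 5.70%. After adjustment 0 were called, where the share over all genes was also 0%. By role, the medians were 0.14 for other genes of recombination and crosslinks, 0.13 for the checkpoint, 0.19 for end joining, 0.19 for base excision, 0.21 for mismatch repair, 0.08 for nucleotide excision and 0.13 for translesion synthesis. The smallest p belonged to Neil3, a glycosylase that removes oxidised bases, at 17.1, 20.9, 15.2 and 17.1 CPM in the controls and 22.05, 22.2, 27.7 and 36.4 CPM in the mutants. Its groups did not overlap, with a log2 fold change of 0.62 (SE 0.17, edgeR adjusted p = 0.381). Mbd4, another glycosylase, was at 0.35 and Dna2, a nuclease that resects ends, at 0.51. The 3 with the smallest p among those lower in fitted level were Xrcc4, the partner of Lig4, at -0.29 (SE 0.15), Polb, the polymerase of base excision repair, at -0.18, and Ube2b, the enzyme that works with Rad18, at -0.15, with adjusted p of 0.424 to 0.623 in edgeR.

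Genes of dividing cells were also highest in mutants 3 and 4. To follow this by library, each list was scored as the mean log2 CPM of its genes less the mean of the 4 controls. The 39 genes scored 0.17, 0.14, 0.30 and 0.62 in mutants 1 to 4, with controls from -0.08 to 0.05. A list of 20 genes of G2 phase and mitosis, such as Mki67 and Cdk1, scored 0.11, 0.13, 0.49 and 0.96, with controls from -0.10 to 0.15. The order of the mutants was alike in both, mutant 4 first and mutant 3 next. In mutants 3 and 4, markers of the cerebellum were also furthest above the controls and those of brainstem neurons furthest below, as given further on. In mutants 1 and 2 the repair score was above every control, while the mitotic score was above controls 1 to 3 and below control 4. By summed level the mitotic list, too, was above every control in every mutant. A list of 22 genes of G1/S and replication scored -0.03, 0.05, 0.50 and 0.76, with controls from -0.07 to 0.11, and 10 markers of granule cell precursors, such as Atoh1 and Barhl1, scored 0.00, 0.31, 0.51 and 0.99, with controls from -0.16 to 0.18. All members of these 3 lists were higher in fitted level in the mutants, 20 of 20, 22 of 22 and 10 of 10, against 52.3% of all genes. Their medians were 0.47, 0.37 and 0.44. The summed levels of the 3 lists ran from 1163 to 1365, 1098 to 1258 and 1314 to 1568 CPM in the controls. In the mutants they ran from 1387 to 2477, 1133 to 2004 and 1378 to 2610 CPM, and no marker was at 0 in any library.

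With the G2/M score of each library as a covariate in the edgeR fit, the median log2 fold change of the 39 genes was 0.09, 30 were above 0, against 50.9% of all genes, and 0 were higher at an unadjusted p under 0.05, against 2.12%. The score was itself above every control in mutants 3 and 4, so this fit takes out what genotype and score share, and their separate parts were not tested. The 17 repair genes known to peak in S or G2 phase, among them Brca1, Brca2, Exo1, Fancd2 and Polq, had a median log2 fold change of 0.37. In the fit without covariates 13 of them were higher at an unadjusted p under 0.05, against 6.94% of all genes. They scored 0.18, 0.17, 0.36 and 0.78 in mutants 1 to 4. The other 22, such as Atm, Rad50 and Parp1, had a median of 0.27 and 10 at that p, and scored 0.15, 0.13, 0.25 and 0.50. In each mutant the score was the higher for the genes of S and G2 phase, while the difference between both sets was not tested. Like all lists here, this split was chosen with earlier results of these data known.

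**Figure D3:**
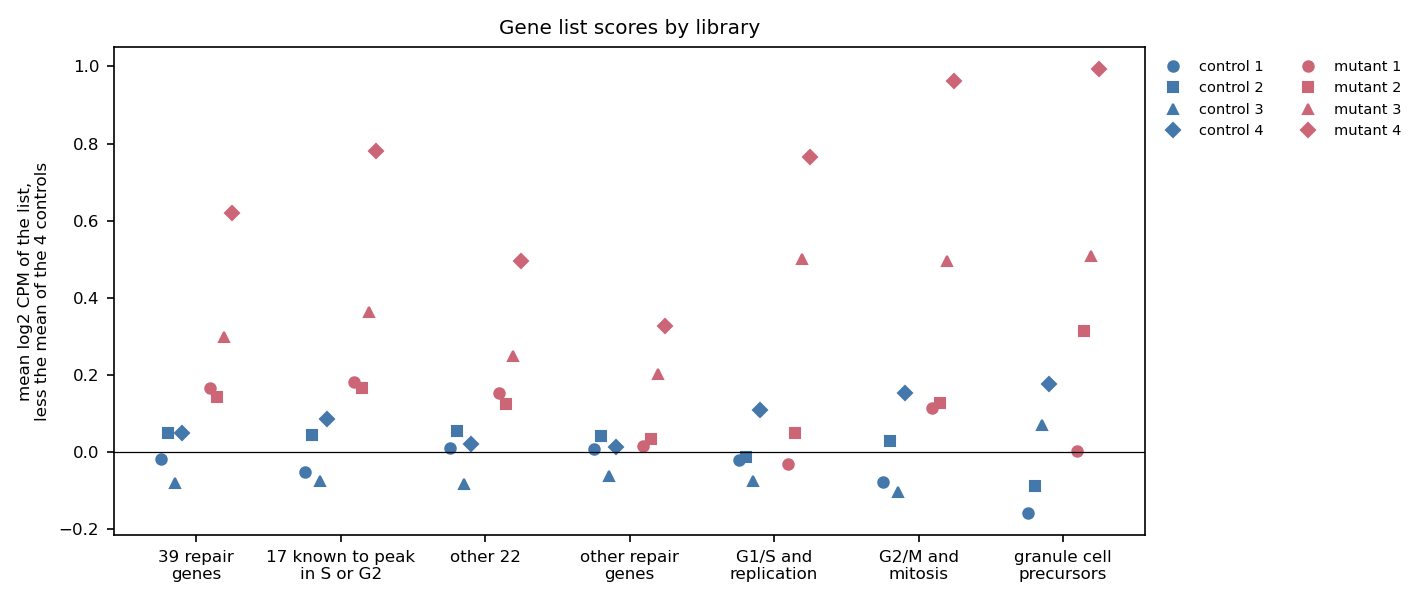
Score of 7 gene lists in each library (y axis, mean log2 CPM of the list less the mean of the 4 controls), with controls in blue, mutants in red and marker shape for the library number. Mutants 3 and 4 are above every control in all 7 lists, with mutant 4 at 0.62 for the 39 repair genes, while mutants 1 and 2 are above every control in the first 3 and mutant 2 also in the last.

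Markers of other tissue parts also differed between libraries, and their part in the repair levels was not tested beyond the covariates given here. The 9 Hox genes were all lower in fitted level, with scores of 0.10, -1.39, -0.51 and -4.14 in mutants 1 to 4 and controls from -0.40 to 0.33. Of 7 markers of brainstem neurons, the summed level was 104 to 128 CPM in the controls and 15.2 to 93.5 CPM in the mutants. These 7 scored -0.26, -0.29, -1.16 and -2.99 in mutants 1 to 4, with controls from -0.18 to 0.08. Choroid plexus markers, 8 in number, summed to 1341 to 3128 CPM in the controls and 3393 to 5957 CPM in the mutants, and 7 oligodendrocyte markers to 1065 to 1508 and 603 to 999.7 CPM. For 7 microglia markers the sums were 135 to 198 and 113 to 161 CPM, and for 6 endothelial markers 203 to 263 and 217 to 331 CPM. The 8 cerebellar markers, En2 and Calb1 among them, summed to 794 to 1036 CPM in the controls and 888 to 1494 CPM in the mutants. They scored 0.04, 0.02, 0.48 and 0.78 in mutants 1 to 4, with controls from -0.22 to 0.33. With the Hox score as a covariate, the median of the 39 genes was 0.15, all 39 were above 0, against 50.9% of all genes, and 1, Brca2, was higher at an unadjusted p under 0.05, a share near the 1.40% of all genes. With Xist as a covariate the median was 0.23, with 38 above 0, against 51.1%, and 0 higher at that p, against 1.12%. Without mutant 4, the median was 0.19 and 38 of 39 were above 0, against 49.8% of all genes. Of these, 8 were higher at that p, against 3.01%, namely Atm, Brca1, Brca2, Chek2, Polq, Rad50, Rad54b and Rad54l.

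Most fitted differences were larger among the libraries with the letter R than among those with P. Within P, with 2 mutants against 2 controls, 32 of 39 genes were above 0, against 49.5% of all genes, and 6 were higher at an unadjusted p under 0.05, against 5.57%. The median log2 fold change within P was 0.13, with a range of -0.25 to 0.48. Within R, 37 of 39 were above 0, against 51.0%, and 28 were higher at that p, against 14.1%. Trp53bp1, at -0.23, was lower at that p within R, where 4759 of 15755 genes were at that p in either direction. The median within R was 0.46, with a range of -0.23 to 0.83. The fold change was larger in R for 35 of the 39 genes, against 49.6% of all genes. The difference between letters was tested gene by gene as an interaction in edgeR, which called 3.20% of all 15789 genes and 3 of the 39, Chek1, Xrcc5 and Rad51ap1. Their log2 fold changes were -0.25 in P and 0.82 in R for Chek1 (edgeR adjusted p of the difference = 0.0324), -0.10 and 0.73 for Xrcc5 (0.0417) and -0.01 and 0.83 for Rad51ap1 (0.0477). In each of the 3 the mutants with the letter P were at or below their controls on average and those with R were above. At an unadjusted p under 0.05 for the difference there were 14 of the 39, those 3 included, where 22.5% of all genes were, and of the 14 only Trp53bp1 was lower in R. Brca2 (0.38 in P and 0.44 in R), Brip1 (0.48 and 0.39), Rad54b (0.39 and 0.78) and Mdc1 (0.34 and 0.20) had the largest values in P.

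**Figure D4:**
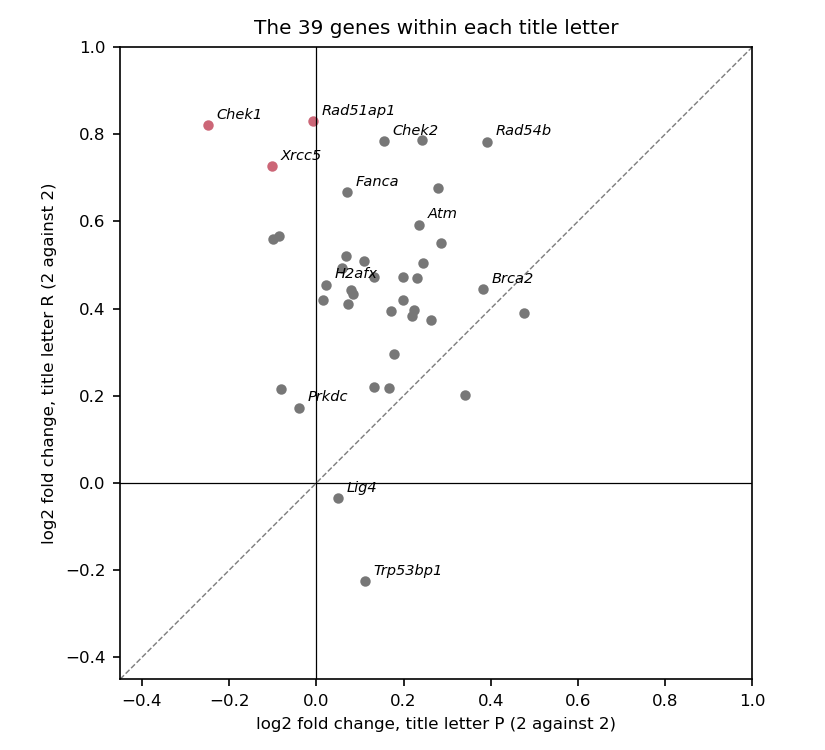
Log2 fold change of the 39 genes among libraries with the title letter P (x axis) and among those with R (y axis), each from 2 mutants against 2 controls, with equal values on the dashed line. Of the 39 points, 35 lie above the line, and the 3 in red, Chek1, Xrcc5 and Rad51ap1, passed the test of the difference between letters.

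Many of the 39 genes have long transcripts that are poor in G and C, and in these libraries fold changes varied slightly with both properties over all genes. By the longest GENCODE M21 transcript of each gene, 29 of the 39 (74.4%) were in the lowest 2 of 5 equal classes of GC content and 27 in the longest 2 classes of length. Over all genes the median log2 fold change ran from 0.05 in the lowest to -0.06 in the highest GC class, and from -0.04 in the shortest to 0.06 in the longest class. The repair genes of the same GC classes had medians of 0.31 for 13 genes, 0.34 for 16, 0.39 for 4, 0.30 for 4 and 0.25 for 2, and in the longest length class the median of 17 was 0.33. With GC content and length fitted out of every library, an alternative added after the data were seen, the median was 0.31 and 37 of 39 were above 0, against 55.5% of all genes. With these terms 20 were higher at an unadjusted p under 0.05, against 9.46%, and 0 were called. Within the letter P the shift with length was larger, from -0.17 in the shortest to 0.11 in the longest class over all genes, where the 17 repair genes of the longest class had a median of 0.22. Within R the shift with GC content was larger, from 0.12 in the lowest to -0.08 in the highest class over all genes, where the repair genes had medians of 0.43 for the 13 in the lowest class and 0.34 for the 2 in the highest. With the GC and length terms and the G2/M covariate together, the median of the 39 was 0.02 and 21 were above 0, against 44.8% of all genes, and 0 were higher at an unadjusted p under 0.05, against 2.42%.

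**Figure D5:**
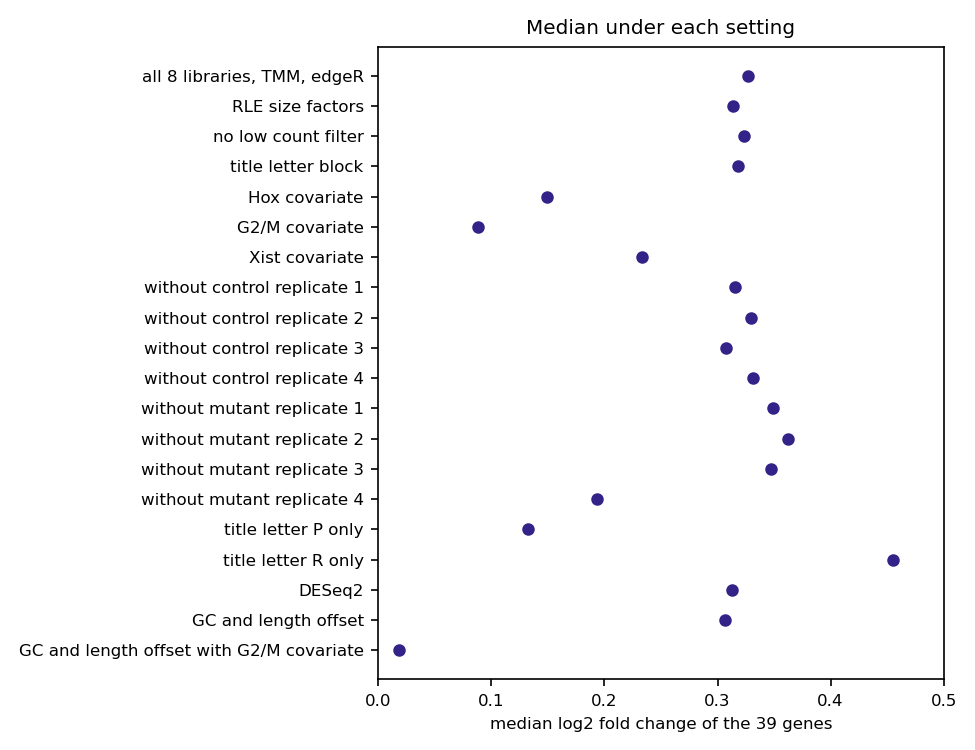
Median log2 fold change of the 39 repair genes (x axis) under each way of processing or set of libraries (y axis). The median is 0.33 with all 8 libraries, 0.19 without mutant 4, 0.13 and 0.46 within the letters P and R, 0.09 with the G2/M covariate, and lowest at 0.02 with that covariate and the GC and length terms.

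The exon counts showed whether the differences covered whole genes. The 39 genes held 929 exon bins, of which 880 had enough counts, and 788 of these had a higher fitted level in the mutants and 92 a lower one. In 23 genes every tested bin was higher, among them 46 of 46 bins in Atr, 37 of 37 in Fanca, 28 of 28 in Topbp1 and 23 of 23 in Brca1. Atm had 59 of 63 bins higher. In Prkdc, 42 of 75 bins were higher, and in Trp53bp1 24 of 28 were lower. Bins of 1 gene share their reads' source and are not independent. The same counts over the bins of all genes were not computed, so these stand without a background. In the test of whether some bins of a gene differ from the rest (edgeR's diffSpliceDGE over 13351 genes), Simes' method called 0.00749% of all genes and the gene-level test 0.0225%, and 0 of the 38 repair genes with several bins were called by either. Their lowest unadjusted p was 0.454 by Simes' method, for Chek2, and 0.176 by the gene-level test, for Polq. H2afx has a single bin. The ratio of the 3′ to the 5′ bins, on the log2 scale and relative to the mean of the controls, was 0.16 over all genes in mutant 1 and -0.07 to 0.06 in the other libraries, and over 34 repair genes 0.08 in mutant 1 and -0.09 to 0.06 in the others.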

How the data were processed

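PolyA RNA from the cerebella of 8 individually collected pups, 4 per group, was sequenced. The authors deposited whole-number counts per gene and per exon bin for each library, which were not normalized. Per the submitters' processing notes, TopHat, HTSeq and DESeq2 were used with build mm9, and no versions are listed. The annotation and the use of strand are not given in the sources used here, so overlapping genes (Rad54b with Fsbp, Parp1 with Mir6904) and antisense genes cannot be told apart. The 5 summary lines of the gene tables, which name no gene and held 24.8 to 34.3% of entries, were left out. Replicate libraries differed beyond counting noise, with chi-square values of 7.76 to 85.7 for each degree of freedom.

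Genes were tested in R 4.3.3 with edgeR 4.0.16 (filterByExpr, TMM factors of 0.986 to 1.01, robust quasi-likelihood F test, two-sided, genotype only, Benjamini-Hochberg over all genes, threshold 0.05). Each SE was computed from the F statistic of its fold change. Scores used log2 CPM with a prior count of 2. Alternatives were DESeq2 1.42.0, RLE size factors, no filter, the title letter as a block, each letter alone, leaving out each library, and scores of G2/M, Hox or Xist as covariates. GC and length terms, with a spline of 5 degrees of freedom, were added after the data were seen. The scripts were tested on simulated counts.

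Values by library are given for the 10 repair genes with the smallest p, the 3 lowest fold changes and the smallest p of each role. Those of Chek1, Xrcc5 and Rad51ap1 were added after their interactions were seen. The 39 genes, the role groups and all other lists were chosen with earlier results of these data known.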

Additional observations from a re-analysis of the deposited data

Results flagged for a closer look

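Of 78 sets of 4 libraries (39 genes in 2 groups), 3 had 1 library far from the other 3 by Dixon's criterion, where chance gives about 1 in 20. Exo1 was lowest in control 1, at 11.7 CPM, with the other controls at 15.0 to 15.5 CPM. Fancd2 was lowest in control 3, at 12.1 CPM, with the others at 13.5 to 13.7 CPM. Xrcc6 was highest in control 4, at 30.1 CPM, with the others at 28.4 to 28.6 CPM.

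The fold change differed between the title letters, by edgeR's test of the interaction, for Chek1 by 1.09 on the log2 scale, for Rad51ap1 by 0.86 and for Xrcc5 by 0.85, each larger in the libraries with the letter R. The mitotic score of the R mutants, 0.49 and 0.96, was also above that of the P mutants, 0.11 and 0.13, and the part of cell division in these 3 genes was not tested.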

How the results depend on the processing

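No setting called any of the 39 genes, nor any exon use among them. Over all genes 0 were called in the analysis reported, 47 by DESeq2, 5 within P, 1 within R, 2 with GC, length and G2/M terms, and 0 to 1 with 1 library left out. The median of the 39 (0.33) was 0.15 with the Hox covariate, 0.088 with G2/M, 0.13 within P, 0.018 with GC, length and G2/M terms, and 0.19 to 0.36 with 1 library left out. Those above 0 (38, against 52.3% of all genes) were 21 with the terms together, against 44.8%. Those higher at an unadjusted p under 0.05 (23, against 6.94% of all genes) were 1 with Hox (1.40%), 0 with G2/M (2.12%) and 0 with Xist (1.12%). Within P they were 6 (Brca2, Brip1, Clspn, Mdc1, Rad50 and Rad54b), against 5.57%, and with the terms together 0, against 2.42%. They were 28 within R (14.1%), 20 with GC and length terms (9.46%) and 24 in DESeq2 (7.03%). RLE factors and no filter gave 22 each, and the title letter as a block 28, with a lowest adjusted p of 0.216 in edgeR. With 1 library left out they were 8 to 24, of which 13 without control 1, 14 without control 3 and 8 without mutant 4 (3.01%). Where no share is given here, it was not computed. Genes without overlap (10, against 3.60% of all genes) were 10 to 16 with 1 library left out, 16 without control 2 and 16 without control 4. Fewer libraries must then be separated, and the share of all genes was not computed for these smaller sets. Sufu passed at -0.60 in DESeq2 (adjusted p = 0.00106) and at -0.74 with the terms together (0.00476).

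Of 304 values for 16 named genes, 288 kept their direction and 16 turned it. Trp53bp1 was at 0.027 with Hox, 0.095 with G2/M and 0.11 within P, and at -0.10 to 0.024 with 1 library left out. Lig4 was at -0.035 within R, -0.016 with GC and length terms and -0.052 to 0.063 with 1 library left out. Prkdc was at -0.040 within P and -0.12 with the terms together. Chek1 was at -0.25 within P, -0.069 with G2/M and -0.13 with the terms together. Xrcc5 was at -0.10 within P and -0.033 with the terms together, and Rad51ap1 at -0.0075 within P. For changes other than fewer samples, the cause was not tested. With 4 libraries a group, the SE of the log2 fold changes ran from 0.10 to 0.20, and no repair gene passed at that precision.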
